A study of Drosophila melanogaster and Drosophila simulans and Drosophila yakuba with 30 samples.

Results

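The Iroquois complex of Drosophila holds 3 related genes, araucan (ara, CG10571), caupolican (caup, CG10605) and mirror (mirr, CG10601), on chromosome arm 3L. Binding of the group B Sox proteins Dichaete and SoxNeuro (SoxN) at the complex was described from every DamID binding interval sharing at least 1 bp with a window of 160 kb at chr3L:12560001-12720000 in the D. melanogaster genome build dm3. The rule gave 192 intervals out of 98045 in the 6 lists that are in D. melanogaster coordinates.

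The 3 proteins are homeodomain transcription factors of the TALE class. In the wing disc they act as prepattern genes that activate the proneural genes achaete and scute where sensory organs will form, and in the eye and head disc they specify dorsal identity. Dichaete and SoxN are HMG-domain transcription factors that are expressed together in much of the embryonic neuroectoderm, where their functions partly overlap.

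In DamID a DNA adenine methyltransferase (Dam) is fused to a DNA-binding protein and methylates GATC sites near the places the protein occupies, so a binding interval is a run of GATC fragments with more reads from the fusion than from Dam alone. The study compared Dichaete binding between 4 species and SoxN binding between 2 of them, in 30 libraries of whole embryos aged 0 to 16 h, with 3 replicates in each of 10 groups. The D. melanogaster line was of strain w[1118], the D. simulans line of w[501], the D. yakuba line of Cam-115 and the D. pseudoobscura line of the reference strain of D. pseudoobscura pseudoobscura. Each line carried 1 piggyBac transgene marked with EGFP, either pBac3xP3-EGFP-Dichaete-Dam, pBac3xP3-EGFP-SoxN-Dam (D. melanogaster and D. simulans only) or pBac3xP3-EGFP-Dam as the control. The fused Sox proteins were those of D. melanogaster in all 4 species, their transgenes were driven from a UAS and Hsp70 promoter rather than from the genes' own regulatory DNA, and embryos were not separated into tissues. Within a species, both fusions were set against one set of Dam-only controls, so the Dichaete and SoxN lists are not independent.

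Each list combines the 3 fusion and 3 control libraries of a group into a single call, so no value below has a replicate error and no test between lists was possible. Reads per library and per interval were not in the lists, so the depth behind an interval is unknown. The number of merged GATC fragments is given instead. This number depends on the spacing of GATC sites and does not measure reads. It was read from the last column of the lists, which have no header. Intervals begin and end at the ends of GATC fragments in dm3. Identical edges in different lists therefore mean only that the same outer fragments were called. At a place bound in D. melanogaster, sequence not translated to dm3 or binding below the threshold can leave an interval of another species missing. These cannot be told apart within a single list. In D. simulans, where an interval of the other factor lay at the place, sequence there had translated at least in part. In the RefSeq annotation the genes follow each other on 3L as ara, caup and mirr, with 4 long non-coding RNA genes between caup and mirr. That annotation is of a later build, so the intervals were not placed at any of the genes. Whether the window holds all 3 genes in dm3 was not checked, and the complex below means the window.

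Both factors had many intervals across the complex, and the counts were alike in 5 of the 6 lists. The window held 38 Dichaete and 37 SoxN intervals in D. melanogaster, 41 Dichaete and 33 SoxN intervals in D. simulans, 37 Dichaete intervals in D. yakuba and 6 Dichaete intervals in D. pseudoobscura. The D. pseudoobscura list was short everywhere, with 468 intervals on 3L against 3111 to 4741 in the others. The paper reports that profiles of this species were noisier and its replicates less reproducible. The density in the window was 23.8 intervals per 100 kb for D. melanogaster Dichaete against 17.7 along 3L, 25.6 against 13.7 for D. simulans Dichaete and 3.75 against 1.91 for D. pseudoobscura Dichaete. For SoxN it was 23.1 against 19.3 in D. melanogaster and 20.6 against 12.7 in D. simulans.

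**Figure D1:**
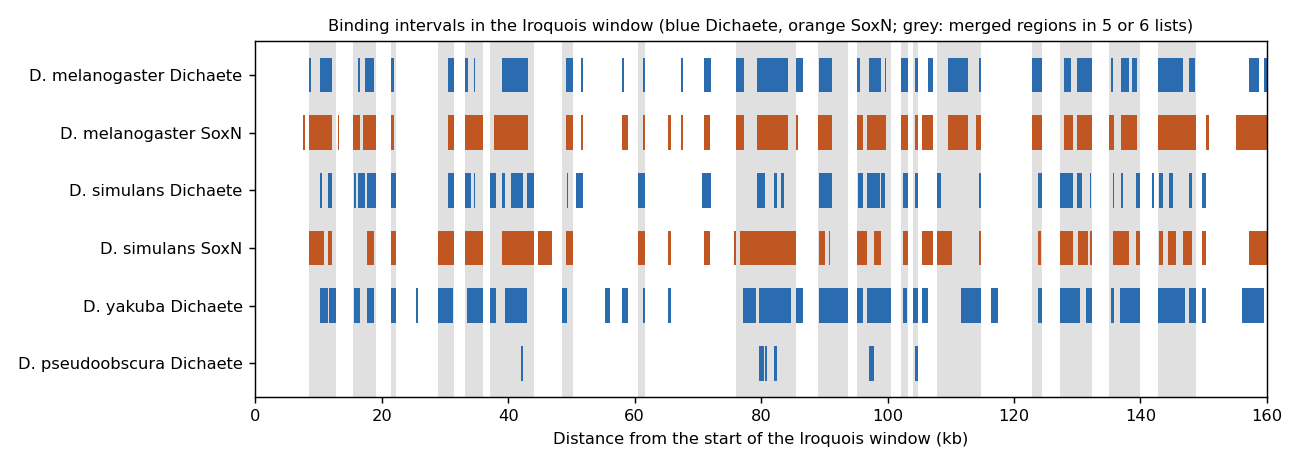
Binding intervals of the 6 lists along the Iroquois window, with distance from the window start in kb on the x axis and a row per list (blue, Dichaete; orange, SoxN; grey, the 19 merged regions with intervals in 5 or 6 lists). The 6 D. pseudoobscura intervals lie at 3 of the places where the other lists have long intervals and in 1 short region, and none lies in the last 55203 bp.

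The share of the window covered by intervals differed more than their number. In D. melanogaster, Dichaete intervals covered 47261 bp, or 29.5% of the window (95% Wilson interval over blocks of 1 kb, 23.0 to 37.0%), and SoxN intervals covered 61324 bp, or 38.3% (31.2 to 46.1%). In D. simulans, Dichaete covered 31989 bp, or 20.0% (14.5 to 26.9%), and SoxN 52857 bp, or 33.0% (26.2 to 40.6%). Dichaete intervals covered 59638 bp, or 37.3% (30.2 to 45.0%), in D. yakuba and 2886 bp, or 1.80% (0.604 to 5.26%), in D. pseudoobscura. The Wilson intervals take blocks of 1 kb as if independent and do not include variation between embryo collections.

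In every list the window was covered more densely than 3L as a whole. For Dichaete the arm was covered at 18.4% in D. melanogaster, 11.5% in D. simulans, 25.5% in D. yakuba and 1.17% in D. pseudoobscura. For SoxN it was covered at 18.1% in D. melanogaster and 12.8% in D. simulans, so the window had 2.12 and 2.59 times the coverage of the arm.

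The arm was cut into 152 tiles of 160 kb in register with the window, to compare the complex with all stretches of equal size. By SoxN coverage the Iroquois window was the third highest tile in D. melanogaster and the second highest in D. simulans, with 98.7% and 99.3% of the other 151 tiles below it. By Dichaete coverage it ranked 17 in D. melanogaster, 14 in D. simulans, 23 in D. yakuba and 36 in D. pseudoobscura, with 89.4, 91.4, 85.4 and 76.8% of the other tiles below it. The median tile was covered at 17.7% for D. melanogaster Dichaete and 17.5% for D. melanogaster SoxN.

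A single other tile was covered more than the Iroquois window in all 5 lists other than D. pseudoobscura, and it was also covered more in D. pseudoobscura. In contrast, 123 of the 151 other tiles were covered less in all 5 lists. The tile before the window was also above the median tile in each list, at 27.6% for D. melanogaster Dichaete and 29.0% for D. melanogaster SoxN. The tile after it was covered at 16.3% and 19.4%.

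**Figure D2:**
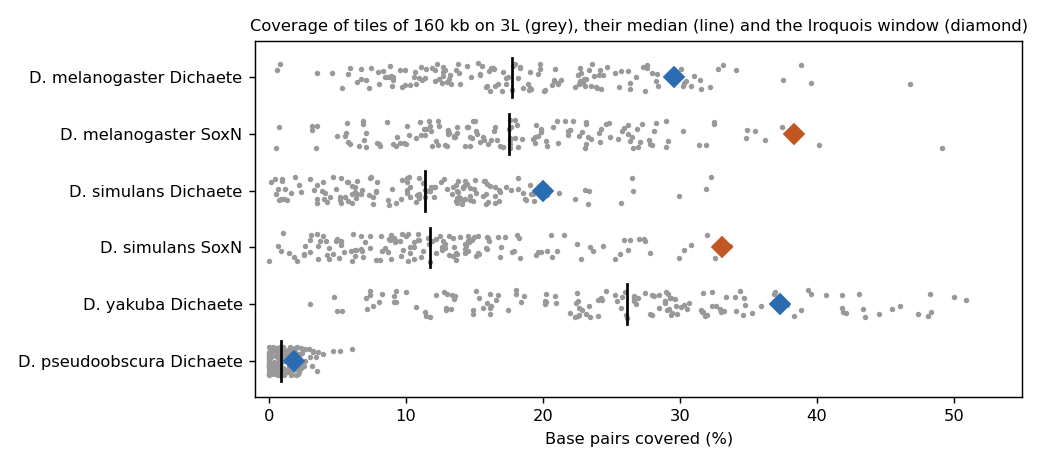
Percent of base pairs covered (x axis) in each tile of 160 kb on 3L for the 6 lists (grey points, the 151 other tiles; line, median tile; diamond, the Iroquois window). The diamond lies at 38.3% for D. melanogaster SoxN, where the highest tile is at 49.1%. For D. simulans SoxN it lies at 33.0%, close to the highest tile of 33.7%.

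SoxN coverage exceeded Dichaete coverage at the complex in both species with both factors. This difference was singled out after the values had been seen. In D. melanogaster it was 8.79 percentage points, the largest of the 152 tiles, with the other tiles between -6.94 and 5.82 points and a median of -0.44. With the authors' stricter lists (adjusted p under 0.01) the difference fell to 3.85 points, from 29.7% for SoxN and 25.9% for Dichaete, and 1 other tile was higher, at 3.88 points. In D. simulans it was 13.0 points, rank 4, with the other tiles between -14.8 and 24.2 points. SoxN was the higher factor in 61 of the 151 other tiles in D. melanogaster and in 89 in D. simulans.

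**Figure D3:**
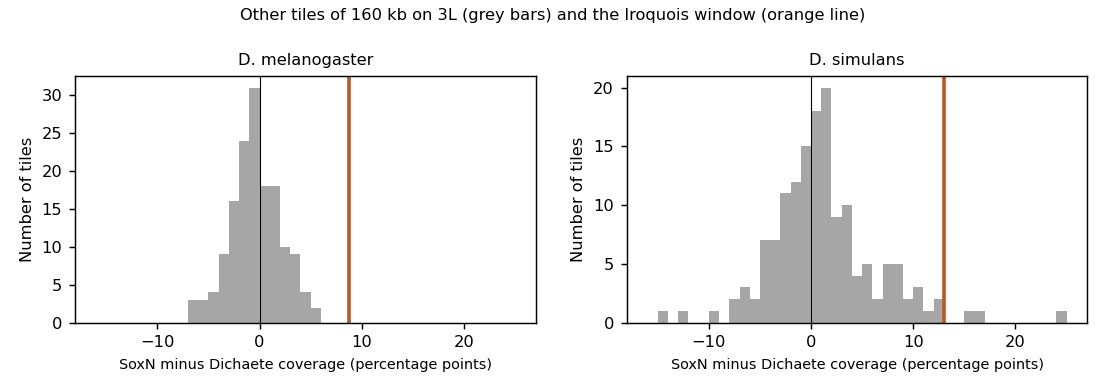
Number of tiles of 160 kb on 3L (y axis) by SoxN minus Dichaete coverage in percentage points (x axis), for D. melanogaster and D. simulans (grey bars, other tiles; orange line, the Iroquois window). The line is at 8.79 points in D. melanogaster, to the right of all bars, and at 13.0 points in D. simulans, where 3 tiles are higher.

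In D. melanogaster nearly all Dichaete intervals lay inside a SoxN interval, and the SoxN intervals reached further. Complete nesting, with equal edges allowed, was seen for 36 of the 38 Dichaete intervals (94.7%, with 60.8% on 3L). For SoxN, 16 of the 37 intervals (43.2%, with 57.0% on 3L) lay wholly within a Dichaete interval. Both counts include 13 pairs of intervals with the same start and end. In base pairs, 46224 were covered by both factors, 15100 by SoxN alone and 1037 by Dichaete alone. The shared base pairs made up 97.8% of Dichaete coverage, above the 80.8% on 3L, but 75.4% of SoxN coverage, below the 82.3% on 3L. Median interval lengths were 1006 bp for Dichaete and 1108 bp for SoxN, against 652 and 600 bp along 3L, and intervals of at least 2 kb numbered 6 and 12.

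In D. simulans fewer Dichaete intervals lay within a SoxN interval than in D. melanogaster, at the complex and along 3L. At the complex there were 27 of 41 (65.9%, with 45.3% on 3L). The SoxN intervals within a Dichaete interval were 13 of 33 (39.4%, with 39.9% on 3L). Both counts include 8 pairs with the same start and end. In base pairs, 24112 were shared, 28745 were covered by SoxN alone and 7877 by Dichaete alone. The shared base pairs were 75.4% of Dichaete coverage against 62.7% on 3L and 45.6% of SoxN coverage against 56.3% on 3L. The median lengths were 612 bp for Dichaete and 1199 bp for SoxN, against 571 and 644 bp along 3L. Intervals of at least 2 kb numbered 3 for Dichaete and 10 for SoxN.

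The intervals of the 2 factors were mostly at shared places, as they were genome-wide. In D. melanogaster, all 38 Dichaete intervals shared sequence with a SoxN interval (100%, Wilson interval 90.8 to 100%, with 85.5% over the whole list), as did 33 of the 37 SoxN intervals with a Dichaete interval (89.2%, 75.3 to 95.7%, with 80.1% over the whole list). In D. simulans, SoxN overlapped 33 of the 41 Dichaete intervals (80.5%, 66.0 to 89.8%, with 66.8% over the whole list) and Dichaete 28 of the 33 SoxN intervals (84.8%, 69.1 to 93.3%, with 68.1% over the whole list). The whole-list share lay below the Wilson interval for D. melanogaster Dichaete and D. simulans SoxN and within it for the other two.

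Between species, Dichaete intervals at the complex were also shared more often than those of the whole lists. Of the 38 Dichaete intervals in D. melanogaster, 27 were also bound in D. simulans (71.1%, 55.2 to 83.0%, with 47.8% over the whole list), and 31 in D. yakuba (81.6%, 66.6 to 90.8%, with 64.2% over the whole list). Counted the other way, D. melanogaster intervals overlapped 34 of the 41 in D. simulans (82.9%, 68.7 to 91.5%, with 68.7% over the whole list) and 29 of the 37 in D. yakuba (78.4%, 62.8 to 88.6%, with 57.0% over the whole list). For SoxN, 26 of the 37 D. melanogaster intervals were overlapped in D. simulans (70.3%, 54.2 to 82.5%, with 46.2% over the whole list) and 30 of the 33 D. simulans intervals in D. melanogaster (90.9%, 76.4 to 96.9%, with 72.8% over the whole list).

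For these 6 between-species shares the whole-list value lay at or below the lower bound of the Wilson interval. Every list covered a larger share of the window than of the arm, and the part of this denser coverage in the higher overlaps was not tested. With a stricter rule, under which an overlap had to take in at least 50% of an interval, the share stayed above that of the whole list in 11 of the 12 pairs of lists.

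Between species and under the stricter rule, D. melanogaster Dichaete intervals were overlapped at 47.4% in D. simulans (32.5 to 62.7%, with 32.0% over the whole list), at 68.4% in D. yakuba (52.5 to 80.9%, with 54.8%) and at 2.63% in D. pseudoobscura (0.466 to 13.5%, with 1.16%). Overlapped by D. melanogaster Dichaete were 65.9% of the intervals in D. simulans (50.5 to 78.4%, with 58.9%), 56.8% in D. yakuba (40.9 to 71.3%, with 37.4%) and 100% in D. pseudoobscura (61.0 to 100%, with 59.9%). For SoxN the shares were 54.1% of D. melanogaster intervals in D. simulans (38.4 to 69.0%, with 34.4%) and 78.8% of D. simulans intervals in D. melanogaster (62.2 to 89.3%, with 61.6%). The whole-list value was within the Wilson interval for D. simulans Dichaete by D. melanogaster and D. melanogaster Dichaete by D. yakuba and D. pseudoobscura, and below it for the other 5.

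Between factors the stricter rule gave 97.4% of D. melanogaster Dichaete intervals overlapped by SoxN (86.5 to 99.5%, with 77.9% over the whole list) and 75.7% of SoxN intervals overlapped by Dichaete (59.9 to 86.6%, with 74.5%). In D. simulans it gave 78.0% for Dichaete by SoxN (63.3 to 88.0%, with 58.8%) and 54.5% for SoxN by Dichaete (38.0 to 70.2%, with 55.5%), the only pair in which the window was not above the whole list. The SoxN intervals of both species were thus close to their whole lists under this rule, and the Dichaete intervals were above theirs.

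**Figure D4:**
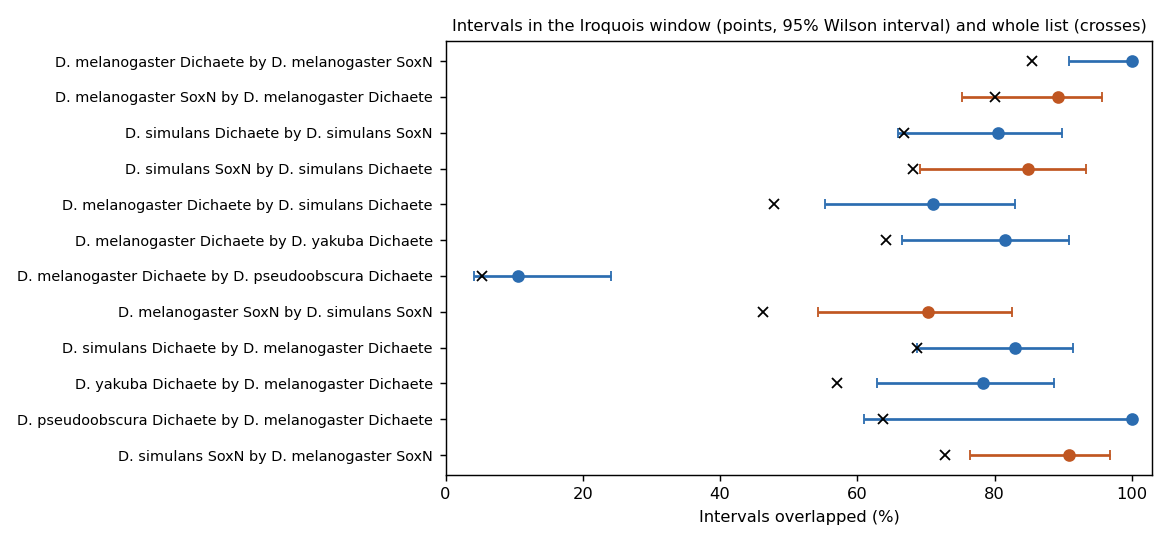
Percent of intervals in the Iroquois window overlapped by at least 1 bp (x axis) for 12 ordered pairs of lists (points, with 95% Wilson intervals) and over the whole lists (crosses). The points lie above the crosses in all 12 pairs, from 10.5% against 5.32% for D. melanogaster Dichaete by D. pseudoobscura to 100% against 85.5% for D. melanogaster Dichaete by SoxN.

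Merging the intervals of all 6 lists gave 39 separate regions in the window, and 18 of them (46.2%, Wilson interval 31.6 to 61.4%) held an interval of each of the 5 lists other than D. pseudoobscura. Along 3L the same was true of 1235 of 6625 merged regions (18.6%). Merging chains intervals, so the intervals of different lists in a region need not overlap one another. The part of the denser coverage of the window in this difference was not tested. The 18 regions covered 68593 bp, or 42.9% of the window. Regions of 1 list only numbered 10 (25.6%, with 39.8% on 3L), those of 2 lists 2 (5.13%, with 19.4% on 3L), those of 3 lists 5 (12.8%, with 11.6% on 3L) and those of 4 lists 3 (7.69%, with 10.1% on 3L). Among Dichaete intervals of D. melanogaster, D. simulans and D. yakuba alone, 22 of 44 merged regions (50.0%) were in all 3 species against 24.9% on 3L.

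Regions in all 6 lists numbered 3 (7.69%, with 3.17% on 3L). The longest, chr3L:12635957-12645474, was 9518 bp long and merged 13 intervals. The others were chr3L:12597064-12604061, with 6998 bp and 11 intervals, and chr3L:12656686-12660480, with 3795 bp and 8 intervals.

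Among the intervals of the window, the one with the most merged GATC fragments in each list lay in the region of 9518 bp. The D. simulans SoxN interval chr3L:12636656-12645474 spanned 8819 bp and 44 fragments, and none of the 3111 intervals of that list on 3L had more fragments. In the other lists, intervals elsewhere on 3L had more fragments than the top interval of the region, 22 for D. melanogaster Dichaete, 18 for D. melanogaster SoxN, 77 for D. simulans Dichaete, 81 for D. yakuba Dichaete and 24 for D. pseudoobscura Dichaete. Intervals of the region had fewer bp per fragment than those of 3L in every list. The values were 178 against 242 for D. melanogaster Dichaete and 200 against 270 for D. simulans SoxN. The part of this spacing in the ranks by fragments was not tested. In D. melanogaster the Dichaete and SoxN intervals at chr3L:12639325-12644331 had the same edges, a length of 5007 bp, and 31 and 30 fragments. The D. yakuba Dichaete interval chr3L:12639743-12644842 was 5100 bp long with 24 fragments. D. simulans Dichaete and D. pseudoobscura Dichaete each had 3 shorter intervals in the region and covered 23.4% and 14.8% of it, against 67.2% for either factor in D. melanogaster, 75.7% for D. yakuba Dichaete and 92.7% for D. simulans SoxN.

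Where the longest interval of a list lay outside this region, it lay further along the window. The longest D. melanogaster SoxN interval was chr3L:12702771-12708828, with 6058 bp and 24 fragments. The longest D. simulans Dichaete interval, chr3L:12649080-12651309, was 2230 bp with 6 fragments. The longest D. pseudoobscura interval, chr3L:12657070-12657839, was 770 bp and a single fragment.

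Of the 19 regions in 5 or 6 lists, 8 were at least 4 kb long. Besides the regions of 9518 and 6998 bp these were chr3L:12568515-12572676, chr3L:12649044-12653660, chr3L:12667939-12674817, chr3L:12687273-12692300, chr3L:12695048-12699856 and chr3L:12702771-12708828, each with an interval of every list but that of D. pseudoobscura. The other 11 ranged from 686 to 3795 bp. In the first 62 kb they were chr3L:12575414-12579104, chr3L:12581449-12582207, chr3L:12588917-12591423, chr3L:12593116-12595981, chr3L:12608483-12610163 and chr3L:12620569-12621658. Further along came chr3L:12655246-12656685, chr3L:12656686-12660480, chr3L:12662078-12663193, chr3L:12664112-12664797 and chr3L:12682842-12684420, so that the shared regions extended over most of the window.

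At the level of single base pairs the sharing was narrower than at the level of regions. The 5 lists other than D. pseudoobscura all covered 15724 bp, in 29 stretches that made up 9.83% of the window against 4.21% of 3L. The longest stretch, chr3L:12600548-12602398, was 1851 bp long. The next were chr3L:12577633-12578831 with 1199 bp, chr3L:12687899-12688998 with 1100 bp and chr3L:12649080-12650110 with 1031 bp. No list covered 45.6% of the window, against 62.2% of 3L.

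Coverage was uneven along the window. In bins of 10 kb the mean coverage of the 5 longer lists was highest at 80 to 90 kb from the window start (56.2%), where the region of 9518 bp lies, and at 90 to 100 kb (48.7%). Further peaks were at 30 to 40 kb (46.6%) and 130 to 140 kb (46.1%). The lowest bins were at 0 to 10 kb (6.95%), 50 to 60 kb (10.4%), 60 to 70 kb (10.7%) and 20 to 30 kb (11.1%).

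From 50 to 70 kb, coverage was 8.29% for D. melanogaster Dichaete, 12.6% for D. melanogaster SoxN, 10.6% for D. simulans Dichaete, 8.47% for D. simulans SoxN and 12.8% for D. yakuba Dichaete. From 70 to 110 kb the same lists covered 40.5, 43.3, 27.1, 45.2 and 49.5%. All 5 lists were thus sparse in the former stretch and dense in the latter.

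In the last 50 kb the lists were spread more widely. Coverage there was 47.8% for D. melanogaster SoxN, 43.6% for D. yakuba Dichaete, 36.2% for D. melanogaster Dichaete, 29.4% for D. simulans SoxN and 15.3% for D. simulans Dichaete. SoxN covered more than Dichaete in 12 of the 16 bins in each species. The largest gap in D. melanogaster was at 30 to 40 kb, with 60.1% for SoxN and 28.2% for Dichaete, and in D. simulans at 80 to 90 kb, with 64.0% for SoxN and 24.3% for Dichaete.

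**Figure D5:**
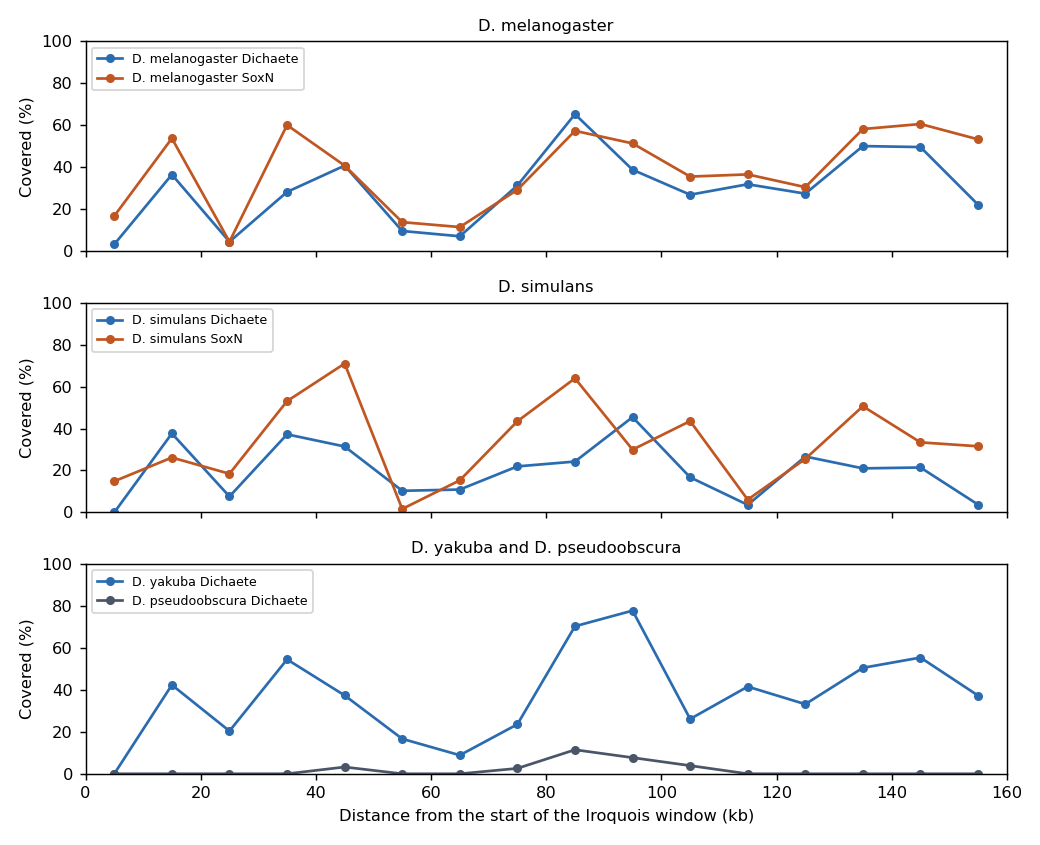
Percent of base pairs covered in bins of 10 kb (y axis) by distance from the start of the Iroquois window in kb (x axis), for the Dichaete and the SoxN lists (blue, Dichaete; orange, SoxN; dark grey, D. pseudoobscura Dichaete). The mean of the 5 longer lists is highest at 80 to 90 kb (56.2%) and falls to 10.4% at 50 to 60 kb.

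Each list had stretches with no interval, and those reaching past the window were first cut to it. The longest within it was the same for both factors in D. melanogaster, chr3L:12581891-12590490, with 8600 bp. It was chr3L:12560001-12570296 for D. simulans Dichaete, chr3L:12610164-12620568 for D. simulans SoxN, chr3L:12625767-12637127 for D. yakuba Dichaete and chr3L:12664798-12720000 for D. pseudoobscura Dichaete. The longest within the window that no list had bound was chr3L:12560001-12567645 at its left edge. Followed past that edge, the stretch across it was longer than the one named above in each list. It had 11116 bp for Dichaete and 10162 bp for SoxN in D. melanogaster, and 12898 bp for Dichaete and 16495 bp for SoxN in D. simulans. For Dichaete it had 18327 bp in D. yakuba and 82873 bp in D. pseudoobscura. The D. simulans Dichaete stretch across the right edge was longer still, with 19568 bp.

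All 6 D. pseudoobscura intervals were overlapped by D. melanogaster Dichaete (100%, Wilson interval 61.0 to 100%, with 63.8% over the whole list), and each lay wholly within intervals of D. melanogaster Dichaete, D. melanogaster SoxN and D. yakuba Dichaete. Counted from D. melanogaster, they touched 4 of the 38 Dichaete intervals (10.5%, 4.17 to 24.1%, with 5.32% over the whole list). Of the 6, 3 fell in the region of 9518 bp, at chr3L:12639743-12640392, chr3L:12640572-12640909 and chr3L:12642094-12642509, with 3, 5 and 3 fragments. These made up 11 of the 14 fragments (78.6%) that the list had in the window.

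The other 3 D. pseudoobscura intervals were single fragments. The interval chr3L:12602076-12602398 was covered in all 5 other lists and lay inside the longest stretch that those lists shared. The intervals chr3L:12657070-12657839 and chr3L:12664409-12664797 were covered in 4 other lists but not in D. simulans SoxN. The last of these was the same single fragment in D. melanogaster Dichaete, D. melanogaster SoxN, D. simulans Dichaete and D. pseudoobscura Dichaete, so its edges were identical by construction. It was missing from both D. melanogaster lists at the stricter threshold.

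Intervals found in a single list were mostly short, and their share differed from that of 3L beyond counting error only in D. yakuba. There were 0 of 38 for D. melanogaster Dichaete (taking 3 counts as the limit of a count of 0, up to 7.89%, with 6.86% on 3L), 3 of 37 for D. melanogaster SoxN (8.11%, with 11.0% on 3L), 1 of 41 for D. simulans Dichaete (2.44%, with 8.44%), 2 of 33 for D. simulans SoxN (6.06%, with 8.33%) and 4 of 37 for D. yakuba Dichaete (10.8%, with 27.6%). The D. pseudoobscura list had 0 of 6, which allows up to 50.0%, with 22.0% on 3L. Only 2 of these intervals reached 1 kb, the D. simulans SoxN interval chr3L:12604764-12606853 with 2090 bp and the D. yakuba interval chr3L:12676377-12677419 with 1043 bp, and each was a single fragment. The share on 3L lay above the Wilson interval for D. yakuba Dichaete (4.29 to 24.7%). It lay within the interval for the other lists, such as D. melanogaster SoxN (2.80 to 21.3%) and D. simulans SoxN (1.68 to 19.6%). Some single-list intervals, such as chr3L:12710373-12710817 of D. melanogaster SoxN, directly adjoined an interval of another list.

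Some intervals were present for one species or factor and missing for another, and the examples here were chosen after their values were seen. The D. melanogaster Dichaete interval chr3L:12669578-12672789, with 3212 bp and 5 fragments, had no Dichaete interval in D. simulans. The D. simulans SoxN interval chr3L:12667939-12670248 overlapped part of it. In D. simulans, the SoxN interval chr3L:12717218-12720702, with 3485 bp and 8 fragments, had no Dichaete counterpart, and neither did chr3L:12665535-12667156, with 1622 bp and 7 fragments. A Dichaete interval of 3 fragments at chr3L:12597064-12598131 had the same edges, which are fragment ends, in D. simulans and D. yakuba. It had no Dichaete counterpart in D. melanogaster. The region chr3L:12709794-12710372, with 579 bp, was bound by both factors in D. simulans and by Dichaete in D. yakuba. It was in neither D. melanogaster list, but the D. melanogaster SoxN interval chr3L:12710373-12710817 began at the next base.

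The stricter lists deposited for D. melanogaster kept most of the intervals at the complex. An interval of the stricter list remained at 35 of the 38 Dichaete intervals (92.1%, Wilson interval 79.2 to 97.3%, with 76.0% on 3L) and at 33 of the 37 SoxN intervals (89.2%, with 69.4% on 3L). The 3 Dichaete and 4 SoxN intervals that were lost were single fragments. The number of intervals was 38 for Dichaete and 42 for SoxN at the stricter threshold.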

How the data were processed

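Binding intervals of DamID-seq in whole embryos were analysed from the 6 deposited lists in dm3 coordinates, with the 2 stricter D. melanogaster lists as an alternative. The 4 lists in the other species' own coordinates were not used, and 0 columns of per-sample values were left out. In the deposited lists the start, the end and, inferred from the values, the number of merged fragments are coordinates and whole numbers in no expression unit. Per the methods, the authors trimmed reads with cutadapt, mapped them with Bowtie2, extended them to 200 bp, counted them on GATC fragments and called fragments with DESeq2 1.6.1 against Dam alone (adjusted p under 0.05 or 0.01), merging those within 100 bp. Reads of other species were moved to dm3 with LiftOver (minMatch 0.7, or 0.5 for D. pseudoobscura) before calling. Version numbers of other tools in the submitters' processing notes were SAMtools 0.1.19, bedtools 2.21.1 and HOMER 4.7.

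Python 3.11.15 with pandas 2.3.3 and NumPy 2.4.6 gave coverage, overlaps (at least 1 bp), merged regions and tiles. Wilson intervals were computed from their formula, which was checked against SciPy 1.17.1, and figures came from Matplotlib 3.10.9. Interval functions were tested on simulated lists. Intervals were clipped to the window for coverage. Coordinates are printed from 1. Wilson intervals at the 95% level cover counting error only. Since each list pools its libraries, values are descriptions without tests. Merged regions that cross the edge of the window were kept whole, and intervals that only touch were kept apart. Intervals were named if they were the longest of a list, merged regions in at least 5 lists, all of D. pseudoobscura, single-list intervals of at least 1 kb or longest empty stretches. Other intervals or stretches named, the stretches shared by 5 lists and the SoxN minus Dichaete difference were chosen after their values were seen. The window and the lists of values were chosen with earlier results of these data known. Gene symbols and order came from the RefSeq table of assembly Release 6. No sequence of dm3 was used here.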

Additional observations from a re-analysis of the deposited data

How the results depend on the processing

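Of 97 other settings tried over 31 values, 84 moved the value by less than its counting interval or, for counts, by less than 1.5 times. The side of the whole list on which a share lay was not scored. The share of D. simulans SoxN intervals overlapped by Dichaete did change side. It was 84.8% (68.1% over the whole list) at 1 bp of overlap and fell below the whole list at 50%. With the stricter threshold of 0.01, the share of tiles below the window was 94.0% for D. melanogaster Dichaete (89.4% at 0.05), D. melanogaster SoxN coverage was 29.7% and, in an alternative chosen after seeing the data, the SoxN minus Dichaete difference in D. melanogaster was 3.85 points. Keeping intervals of at least 500 bp left 24 D. melanogaster Dichaete, 27 D. simulans Dichaete and 2 D. pseudoobscura intervals, and placed 60.3% of tiles below the window in D. pseudoobscura. Tiles of 5 arms in place of 3L put 83.1% below it. Requiring an overlap of at least 50% of an interval gave 54.5% for D. simulans SoxN by Dichaete (55.5% over the whole list), 47.4% for D. melanogaster Dichaete by D. simulans (32.0%), 2.63% by D. pseudoobscura (1.16%), 54.1% for D. melanogaster SoxN by D. simulans (34.4%), 65.9% for D. simulans Dichaete by D. melanogaster (58.9%) and 56.8% for D. yakuba Dichaete by D. melanogaster (37.4%). The cause of these changes beyond the rule itself was not tested. No paired analysis was possible because each list combines its libraries in 1 call, and for the same reason no replicate could be left out. Depth per library is unknown, and the 6 D. pseudoobscura intervals limit what can be said of that species.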
